A study of Mus musculus with 8 samples.

Results

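The genes described here are 10 components of the mTOR pathway: Mtor, Rptor, Rictor, Mlst8, Rheb, Tsc1, Tsc2, Stk11, Rps6kb1 and Eif4ebp1. They were chosen by name and matched by Ensembl identifier, 10 of 21959 genes in the deposited table, and all 10 passed the filter on low values and were tested. The samples were oocytes from ovaries of wild-type mice and of Rbpms2 knock out mice at postnatal day 1, in 4 libraries per genotype. Rbpms2 encodes an RNA-binding protein, and the series title presents it as a regulator of early oocyte development. Each library came from 1 tube of 5 to 10 hand-picked cells, taken as primordial oocytes, and the RNA went through 18 cycles of amplification. The labels give no strain and no allele, nor do they say which tubes share an animal, so a p-value here reflects differences between tubes that may be technical.

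mTOR is a protein kinase that joins nutrient and growth factor signals to protein synthesis and cell growth. It works in a pair of complexes: raptor (Rptor) defines mTORC1 and rictor (Rictor) defines mTORC2, while mLST8 (Mlst8) is part of both. On the lysosome mTORC1 is switched on by the small GTPase RHEB. The TSC1-TSC2 complex turns RHEB off, and the kinase LKB1 (Stk11) acts on TSC2 through AMPK. mTORC1 phosphorylates S6 kinase 1 (Rps6kb1) and the translation repressor 4E-BP1 (Eif4ebp1). In mouse ovaries, loss of Tsc1 or Tsc2 from oocytes is known to activate the pool of primordial follicles early.

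Depth and cell content differed between the tubes. Reads assigned to genes, worked out from the smallest FPKM steps, numbered 8310774 to 14526326 a library, and each of the 10 genes had 37 to 5055 reads in a library. Levels are FPKM, fragments per kilobase of gene scaled to the depth of the library. Rbpms2 itself went from 168.5 ± 32.3 to 42.5 ± 11.5 FPKM (SD, n = 4 each) in knockout, and the labels do not say which part of it was deleted. Of 11 oocyte markers, 11 reached 1 FPKM in every wild-type library and 9 in every knockout library, with Zp3 and Gdf9 at 0.969 FPKM or below in knockout. Their summed level was 5344 to 7973 FPKM in wild type and 794.8 to 1913 FPKM in knockout, and Dppa3 took the largest part of the fall (3027 to 135.5 FPKM). The germ cell markers Ddx4 and Dazl instead rose in knockout, from 68.99 to 196.7 FPKM (limma adjusted p = 0.00843) and from 249.9 to 520.7 FPKM (limma adjusted p = 0.00301). Markers of other ovarian cells were present in some tubes of both genotypes. Summed stromal markers stood at 76.2 FPKM in wild-type replicate 3 and at 288.4 and 324.8 FPKM in knockout replicates 2 and 3, against 3.45 to 27.3 FPKM in the other 5 libraries. Endothelial markers stood at 296.7 FPKM in knockout replicate 1 and at 1.55 to 5.999 FPKM elsewhere. Summed erythroid markers were 4211 and 5354 FPKM in wild-type replicates 1 and 3, and 2819 and 3212 FPKM in knockout replicates 2 and 3. In the remaining libraries they were 11.9 to 160 FPKM. Summed granulosa markers were 1.57 to 45.5 FPKM in wild type and 11.4 to 380.1 FPKM in knockout, and immune markers 7.05 to 20.5 and 16.7 to 388.6 FPKM. Among these Mrc1 (0.13 FPKM or below in wild type, 4.35 to 16.4 FPKM in knockout), Lyz2 and Krt18 were called higher. Genes induced by tissue dissociation, Fos and Atf3 among them, summed to 51.6 to 273.1 FPKM in wild type, 420.2 to 1681 FPKM in knockout replicates 1 to 3 and 52.1 FPKM in knockout replicate 4. Fos, Atf3 and Dusp1 of that list were called higher (limma adjusted p = 0.0174, 0.0129 and 0.0168). The part of these marker levels in the results was not tested.

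The 10 genes did not move as 1 block. Rheb rose, and Rptor, Mlst8, Tsc1, Tsc2, Stk11 and Eif4ebp1 fell, while Mtor, Rictor and Rps6kb1 did not pass the test. The test was limma on log2(FPKM + 1) over 11235 genes, with genes called at a Benjamini-Hochberg adjusted p under 0.05. It called 43.4% of all tested genes, 17.7% higher and 25.6% lower in knockout. Of the 10 genes, 1 was called higher and 6 lower, and the calls of Mlst8, Tsc1, Tsc2 and Stk11 ended after a correction for transcript GC content. Their median log2 fold change was -0.79, against -0.12 over all tested genes. In 6 of the 10, wild-type and knockout libraries had no overlap in FPKM, as in 39.9% of tested genes, with 1 wholly above wild type (15.9% of tested genes) and 5 wholly below (24.0%). Leaving out any of wild-type replicates 2 and 4 and knockout replicate 4 brought the number lower to 3, and the number higher was 2 without knockout replicate 2. Median-of-ratios scaling, quantile scaling and the GC correction moved the median of all genes by 0.12, 0.17 and 0.16 on the log2 scale. All-gene shares of calls in the alternatives cited for single genes were 42.9% with median-of-ratios scaling, 44.6% with quantile scaling, 41.1% with limma-voom and 44.2% without the 3 libraries rich in stromal markers. In bulk RNA, fewer cells of a type and less RNA per cell cannot be told apart.

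**Figure D1:**
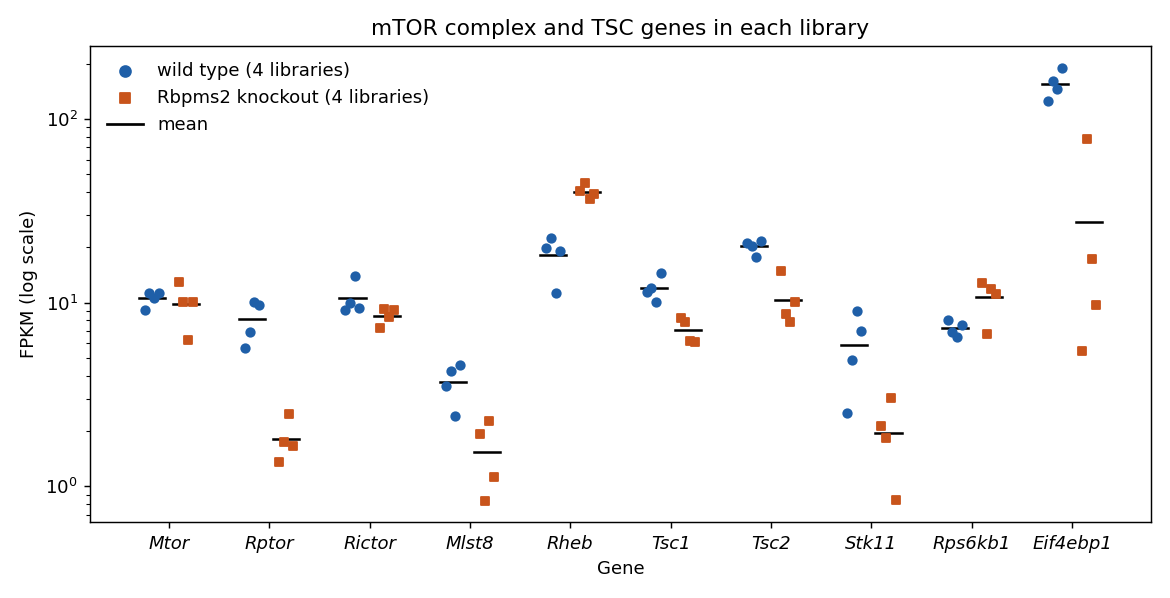
FPKM on a log axis for each of the 10 genes, with 1 point per library (circles wild type, squares Rbpms2 knockout, 4 each) and a bar at the mean. The knockout squares lie wholly above the wild-type circles for Rheb and wholly below for Rptor, Mlst8, Tsc1, Tsc2 and Eif4ebp1.

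Among the subunits of the kinase complexes, the scaffold of mTORC1 fell and the kinase itself did not pass the test. Rptor (ENSMUSG00000025583, chromosome 11, 119602905 to 119899576 in GRCm38) encodes raptor, which brings substrates to the kinase. Wild-type replicates 1 to 4 had 5.69, 6.93, 10.1 and 9.77 FPKM of Rptor, against 1.36, 1.74, 2.49 and 1.67 FPKM in knockout replicates 1 to 4. Even the highest knockout library thus stayed below the lowest wild-type one. Mean Rptor fell 4.48-fold, from 8.11 ± 2.14 to 1.81 ± 0.479 FPKM (SD, n = 4 each). On the log2(FPKM + 1) scale, where changes of low genes come out smaller, this was -1.68 (standard error 0.28, limma adjusted p = 0.000737). An exact permutation test of genotype gave a two-sided p = 0.0286, the lowest that 4 against 4 libraries can reach. From recovered reads the limma-voom log2 fold change of Rptor was -2.12 (adjusted p = 0.000468).

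The Rptor promoter is shown beside that of Rheb because these genes moved in opposite directions and kept their calls under all 23 alternatives run. Both windows of 300 bases run from 250 before to 50 after the gene's start in RefSeq on GRCm38.p6, in which 9 of the 10 genes matched an entry. Eif4ebp1 had no entry. For Rheb that start lies inside the GENCODE gene whose coordinates are given with its values. The Rptor window is chr11:119602655-119602954 on the plus strand, and the Rheb window is chr5:24842312-24842611 on the minus strand. Capitals mark matches to 7 motifs searched on both strands: the E-box CACGTG, the GC-box GGGCGG, the ETS-type site CCGGAAG, the box CCAAT, the TATA-type box TATAAA, the NRF1-type site GCGCATGCG and the homeodomain-type site TAATTA. No match printed overlaps another.
Rptor promoter: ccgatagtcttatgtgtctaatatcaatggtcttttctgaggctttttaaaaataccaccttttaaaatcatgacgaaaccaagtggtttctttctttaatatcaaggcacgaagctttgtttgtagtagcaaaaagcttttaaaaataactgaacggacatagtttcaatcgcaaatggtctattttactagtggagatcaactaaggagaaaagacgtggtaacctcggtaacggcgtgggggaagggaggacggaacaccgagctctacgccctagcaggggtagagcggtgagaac
Rheb promoter: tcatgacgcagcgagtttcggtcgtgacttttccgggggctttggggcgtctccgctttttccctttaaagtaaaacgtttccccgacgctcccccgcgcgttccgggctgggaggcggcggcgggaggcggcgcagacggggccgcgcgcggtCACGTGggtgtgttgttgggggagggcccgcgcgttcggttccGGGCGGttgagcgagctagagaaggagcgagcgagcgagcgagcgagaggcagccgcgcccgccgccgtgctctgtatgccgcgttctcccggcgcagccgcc
The Rptor window is poor in GC (41.7%, with a lower value in 13.4% of 32851 mouse promoter windows) and holds 13 CpG pairs and none of the 7 motifs. The Rheb window has 70% GC and 47 CpG pairs. It holds the E-box CACGTG once, which 7.15% of the windows have, and GGGCGG once, which 35.7% have. Among the 9 windows CACGTG was found in that of Rheb only. GGGCGG was also found in the windows of Mtor, Rictor and Stk11, which held CCAAT as well (37.4% of windows). CCGGAAG, present in 8.86% of windows, was found in those of Mtor and Tsc2, and GCGCATGCG, present in 1.75%, in that of Rps6kb1. Windows of the other genes ran from 53.3% GC (Rps6kb1) to 78.3% (Rictor, with 47 CpG pairs). Those of Tsc2, Stk11, Mlst8 and Tsc1, which fell, had 65%, 61.3%, 57.7% and 57.3%. A match is a run of letters and not a shown binding site.

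Mtor (chromosome 4, 148448611 to 148557683), the kinase, had 9.10, 11.3, 10.6 and 11.2 FPKM in wild-type replicates 1 to 4 and 12.99, 10.1, 6.24 and 10.1 FPKM in knockout replicates 1 to 4. The groups overlapped, with the highest and the lowest value both in knockout. The log2 fold change of Mtor was -0.12 with a 95% interval from -0.67 to 0.42 (limma adjusted p = 0.709). Its sign was positive after median-of-ratios or quantile scaling (0.014 and 0.015), after GC correction and without knockout replicate 3 (0.058).

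Rictor (chromosome 15, 6708379 to 6800401), the defining subunit of mTORC2, had 9.13, 9.90, 14.04 and 9.35 FPKM in wild-type replicates 1 to 4 and 7.26, 9.23, 8.35 and 9.12 FPKM in knockout replicates 1 to 4. Wild-type replicate 3 was the high library, and the others spanned a narrow range that overlapped between the genotypes. The log2 fold change of Rictor was -0.28, with a 95% interval from -0.77 to 0.22 (limma adjusted p = 0.342). It was -0.14 without wild-type replicate 3, -0.14 after median-of-ratios scaling and -0.12 after quantile scaling.

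Mlst8 (chromosome 17, 24473551 to 24479078), the subunit shared by both complexes, was the lowest of the 10 genes in either genotype. It had 3.51, 4.27, 2.43 and 4.61 FPKM in wild-type replicates 1 to 4 and 1.93, 0.837, 2.27 and 1.13 FPKM in knockout replicates 1 to 4. The groups did not overlap, but wild-type replicate 3 and knockout replicate 3 lay close. Mlst8 fell by 0.90 on the log2 scale (standard error 0.30, limma adjusted p = 0.0333). This call rests on few reads, 635 over the wild-type and 322 over the knockout libraries, and it ended on leaving out wild-type replicate 1, 2 or 4, and knockout replicate 2 or 4, in turn (adjusted p = 0.0604 to 0.0906). Of its exon bases 22.5% are shared with Bricd5 on the other strand, and Bricd5 was listed at 0 in all 8 libraries.

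Rheb (ENSMUSG00000028945, chromosome 5, 24802823 to 24842624), the activator of mTORC1, was the 1 gene of the 10 that rose. It had 19.9, 22.6, 11.3 and 19.1 FPKM in wild-type replicates 1 to 4 and 40.3, 45.0, 36.7 and 38.8 FPKM in knockout replicates 1 to 4. Every knockout library lay above every wild-type one, as in 15.9% of tested genes. Mean Rheb rose 2.21-fold, from 18.2 ± 4.85 to 40.2 ± 3.53 FPKM (SD, n = 4 each). The log2 fold change was 1.14 (standard error 0.23, limma adjusted p = 0.00244), and the knockout libraries varied less around their mean than the wild-type ones (8.78% against 26.7%, a difference not tested).

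The related GTPase gene Rhebl1, whose product can also activate mTORC1, went the other way. It had 35.0, 30.1, 17.9 and 27.6 FPKM in wild-type replicates 1 to 4 and 3.92, 9.88, 4.98 and 2.65 FPKM in knockout replicates 1 to 4. Rhebl1 fell by 2.25 on the log2 scale (standard error 0.34, limma adjusted p = 0.000466) and kept its call under all 23 alternatives. In wild type the mean of Rhebl1 (27.7 FPKM) was above that of Rheb, and in knockout (5.36 FPKM) below it.

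The 3 brakes all fell, with smaller log2 fold changes than Rptor or Eif4ebp1. Tsc2 (chromosome 17, 24595816 to 24632630) encodes tuberin, the GTPase-activating protein that switches RHEB off. It had 21.2, 20.3, 17.8 and 21.6 FPKM in wild-type replicates 1 to 4 and 14.9, 8.66, 7.87 and 10.1 FPKM in knockout replicates 1 to 4. These groups did not overlap, and knockout replicate 1 was the nearest to wild type. The log2 fold change of Tsc2 was -0.94 (standard error 0.23, limma adjusted p = 0.00754). Tsc2 shares 7.2% of its exon bases with Pkd1 on the other strand, which also fell, from 5.68 ± 1.62 to 2.02 ± 0.628 FPKM (SD, n = 4 each). The labels do not state that counting used strand, so reads of the shared stretch cannot be told apart.

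Tsc1 (chromosome 2, 28641228 to 28691167), which encodes hamartin and stabilizes tuberin, had 11.5, 11.97, 10.1 and 14.5 FPKM in wild-type replicates 1 to 4. Its knockout replicates 1 to 4 had 8.27, 7.88, 6.15 and 6.11 FPKM, all below the wild-type libraries. Tsc1 fell by 0.68 on the log2 scale (standard error 0.22, limma adjusted p = 0.0294). Leaving out wild-type replicate 1, 2 or 4, and knockout replicate 3 or 4, in turn ended the call (adjusted p = 0.0544 to 0.0934), as did median-of-ratios scaling (adjusted p = 0.0821) and quantile scaling (adjusted p = 0.0965).

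Stk11 (chromosome 10, 80115803 to 80130682), the LKB1 kinase gene, was the most variable of the 10 in wild type, at 2.50, 4.88, 9.03 and 7.01 FPKM in replicates 1 to 4. Knockout replicates 1 to 4 had 2.13, 1.83, 3.02 and 0.845 FPKM. Wild-type replicate 1 lay within the knockout range, so the groups overlapped. Stk11 fell by 1.16 on the log2 scale (standard error 0.38, limma adjusted p = 0.0292), and the exact two-sided permutation test gave p = 0.0571. Its call was lost on leaving out wild-type replicate 2, 3 or 4, and knockout replicate 2 or 4, in turn (adjusted p = 0.0547 to 0.0834) and with limma-voom (adjusted p = 0.0729). Cbarp, which shares 5.07% of the Stk11 exon bases on the other strand, fell from 4.88 ± 2.65 to 0.705 ± 0.669 FPKM (SD, n = 4 each).

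The translation outputs differed from each other. Eif4ebp1 (ENSMUSG00000031490, chromosome 8, 27260329 to 27276674) encodes 4E-BP1, which holds the cap-binding protein eIF4E until mTORC1 phosphorylates it. It was the most abundant of the 10 in wild type, at 125.4, 161.1, 145.3 and 190.2 FPKM in replicates 1 to 4. Knockout replicates 1 to 4 had 5.45, 78.2, 17.3 and 9.67 FPKM. All 4 knockout libraries lay below wild type, with replicate 2 far above the other 3. The mean went from 155.5 ± 27.3 to 27.6 ± 34.0 FPKM (SD, n = 4 each), 5.63-fold lower, and was 14.4-fold lower without knockout replicate 2. The log2 fold change of Eif4ebp1 was -3.12 (standard error 0.61, limma adjusted p = 0.00204) and -3.84 without knockout replicate 2.

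Knockout replicate 2 also had the highest summed oocyte markers of the knockout libraries, 1913 FPKM against 794.8 to 1579 FPKM. Its stromal markers, at 288.4 FPKM, were close to those of replicate 3, where Eif4ebp1 stood at 17.3 FPKM. The part of either in the Eif4ebp1 level of that library was not tested.

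Rps6kb1 (chromosome 11, 86498871 to 86544805), the S6 kinase 1 gene, did not pass the test. It had 7.999, 6.95, 6.51 and 7.56 FPKM in wild-type replicates 1 to 4 and 12.8, 6.79, 11.9 and 11.2 FPKM in knockout replicates 1 to 4. Knockout replicate 2 lay inside the wild-type range and the other 3 above it. The log2 fold change of Rps6kb1 was 0.47 with a 95% interval from -0.07 to 1.01 (limma adjusted p = 0.145). It was called higher without knockout replicate 2 (0.65, adjusted p = 0.0391) and after quantile scaling (0.65, adjusted p = 0.0474), and its sign was negative after GC correction.

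The order of the 10 genes by mean FPKM changed with genotype. In wild type Eif4ebp1 came first at 155.5 FPKM, followed by Tsc2 (20.2), Rheb (18.2), Tsc1 (11.99), Rictor (10.6), Mtor (10.6), Rptor (8.11), Rps6kb1 (7.26), Stk11 (5.85) and Mlst8 (3.70). Eif4ebp1 stood clear of Tsc2 in every library, and each later neighbour in that order overlapped the next in range. In knockout Rheb came first at 40.2 FPKM. Eif4ebp1 came second at 27.6 FPKM (10.8 FPKM without knockout replicate 2), and its range overlapped that of Rheb. Rps6kb1 (10.7), Tsc2 (10.4), Mtor (9.86), Rictor (8.49) and Tsc1 (7.10) followed, each overlapping the next. Stk11 (1.96), Rptor (1.81) and Mlst8 (1.54) formed a separate low group, with every Stk11 library below every Tsc1 library. Rptor thus overlapped in range with Rictor and Mtor in wild type, and with Stk11 and Mlst8 in knockout.

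Differences between a pair of genes within each library were tested over samples for 4 pairs, with an exact two-sided permutation test. Rptor minus Rictor, a comparison of the defining subunits of both complexes, was -0.36 ± 0.29 in wild type and -1.76 ± 0.23 in knockout (SD, n = 4 each, log2(FPKM + 1) scale). Rps6kb1 minus Eif4ebp1 was -4.23 ± 0.29 in wild type and -0.64 ± 1.92 in knockout. Libraries of the genotypes did not overlap in either pair (exact permutation p = 0.0286 each), but with 2 of 4 pairs at that smallest p the Benjamini-Hochberg adjusted p was 0.0571, which misses the threshold. Without knockout replicate 3 both passed, and so did Mtor minus Mlst8 (adjusted p = 0.0381 each, with 3 of 4 pairs at the smallest p). Over all alternatives the adjusted p of the first 2 pairs was 0.0381 to 0.133. After GC correction the genotypes differed by -0.41 in Rptor minus Rictor (adjusted p = 0.114). They differed by 0.25 in Tsc1 minus Tsc2 (exact permutation p = 0.229, adjusted p = 0.229) and by 0.78 in Mtor minus Mlst8 (exact permutation p = 0.114, adjusted p = 0.152), with overlapping libraries in both.

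**Figure D2:**
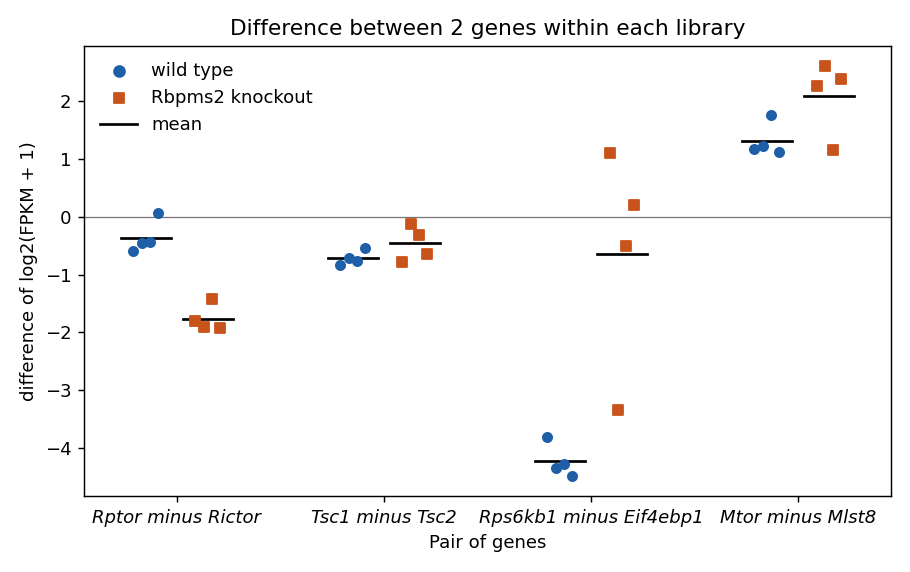
Difference of log2(FPKM + 1) between 2 genes of the same library, for 4 pairs, with 1 point per library (circles wild type, squares knockout) and a bar at the mean. The genotypes stand apart for Rptor minus Rictor (means -0.36 and -1.76) and Rps6kb1 minus Eif4ebp1, where 1 knockout square lies at -3.34, and they overlap for the other pairs.

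The change with genotype varied with transcript GC content over the tested genes, and several of the 10 genes sit toward the ends of the GC range. Over tested genes the median log2 fold change ran from 0.52 in the lowest of 10 equal bins of GC, taken from the longest coding transcript, to -0.87 in the highest bin. Stk11 (59.5% GC), Rptor (56.5%), Tsc2 (54.7%), Mlst8 (54.7%), Mtor (54.2%) and Tsc1 (51.7%) lie in the upper bins. Eif4ebp1 (48.2%) and Rheb (47.1%) are near the middle, and Rictor (42.5%) and Rps6kb1 (39.2%) are low.

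Set beside the median of genes in the same GC bin, Eif4ebp1 lay 3.04 lower, Rptor 1.09 lower and Rheb 1.06 higher on the log2 scale. Stk11 lay 0.29 lower than the -0.87 of its bin, and Rps6kb1 0.05 lower than the 0.52 of its bin. Rictor lay 0.66 lower than the 0.38 of its bin, and Mtor 0.36 higher than the -0.49 of its bin. Tsc2, Mlst8 and Tsc1 lay 0.45, 0.41 and 0.34 lower.

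After each library's trend against GC was removed (the GC correction), 1 of the 10 genes was higher and 3 were lower, where 18.5% and 18.9% of 11220 genes were and 37.5% were called in all. Rheb kept a log2 fold change of 1.13 (limma adjusted p = 0.00423), Rptor had -1.04 (adjusted p = 0.00872) and Eif4ebp1 -3.05 (adjusted p = 0.00278). Rictor was then called lower, at -0.63 (adjusted p = 0.0499), which was not called when the replicate number was added to that fit (adjusted p = 0.0691). The calls of Mlst8, Tsc1, Tsc2 and Stk11 ended, with log2 fold changes of -0.39, -0.35, -0.42 and -0.34 (adjusted p = 0.325, 0.246, 0.225 and 0.414). Mtor had 0.36 (adjusted p = 0.322) and Rps6kb1 -0.11 (adjusted p = 0.732). The TSC and LKB1 brakes thus passed the test before this correction and not after it, whereas Rheb, Rptor and Eif4ebp1 passed in both.

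**Figure D3:**
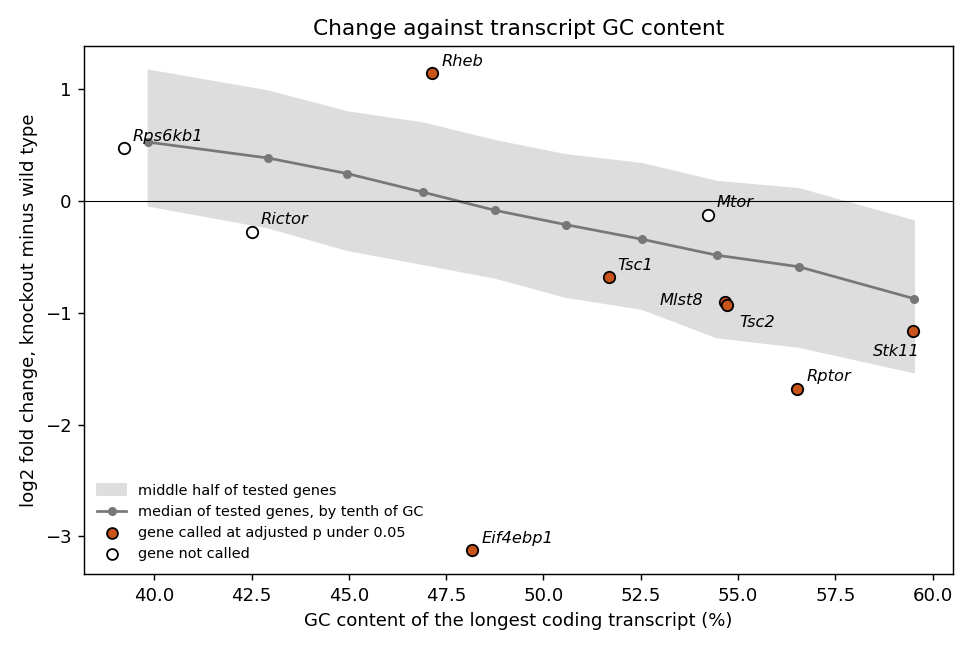
Log2 fold change, knockout minus wild type, against GC content of the longest coding transcript (%). The line joins medians of all tested genes in 10 GC bins, falling from 0.52 to -0.87, the band is their interquartile range, and points are the 10 genes. Eif4ebp1 and Rptor lie well under the band, Rheb above it and Rictor just under it.

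**Figure D4:**
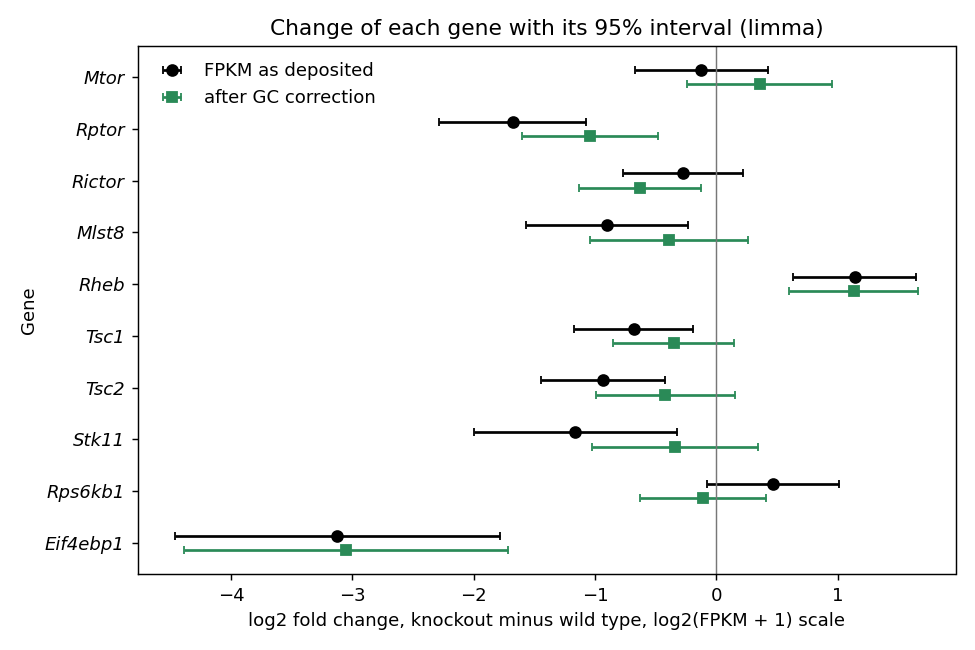
Log2 fold change of each of the 10 genes with its 95% interval from limma, from FPKM as deposited (black circles) and after GC correction (green squares). The intervals of Rptor, Rheb and Eif4ebp1 exclude 0 in both, and those of Tsc1, Tsc2, Stk11 and Mlst8 include 0 after the correction.

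Over the 8 libraries, each gene's most similar pattern among the other 11234 tested genes was found by Pearson correlation of log2(FPKM + 1), given as a description with libraries and genotype shared by all points. Rptor was most like Ptprf, a receptor tyrosine phosphatase gene (r = 0.999), and 1250 genes had r above 0.9 with it. Eif4ebp1 was most like the kinase gene Csnk1d (r = 0.994) and Rheb most like Nsmce2 (r = 0.991). Tsc2 was most like Tarbp2 (r = 0.992), Tsc1 most like Sac3d1 (r = 0.991), Stk11 most like Slc26a2 (r = 0.986) and Mlst8 most like Psmd9 (r = 0.977). Rps6kb1 was most like Cct6b (r = 0.970). Mtor was most like Mul1, a ubiquitin ligase gene of mitochondria (r = 0.940), and had 4 genes above 0.9. Rictor was most like the carbonic anhydrase gene Car2 (r = 0.937), which stood at 15.7 FPKM in wild-type replicate 3 and at 2.70 FPKM or below in the other libraries.

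Other genes of the pathway, listed by role, held changes in both directions. Of 74 such genes in the deposited table, 68 were tested: 8 rose, 25 fell and 35 did not pass, 48.5% being called where 43.4% of all tested genes were. Their median log2 fold change was -0.44, and after GC correction 8 were higher and 18 lower with a median of -0.08. The medians of 3 lists turned positive under that correction: 0.089 for accessory subunits, 0.14 for Rag GTPases and their partners and 0.13 for other kinase targets. The median of all tested genes turned as well, from -0.12 to 0.034, with 18.5% of them higher and 18.9% lower. Counts in each list stand against the 17.7% higher and 25.6% lower of all tested genes. Without wild-type replicate 4 the number lower was 16. Without any 1 library the number higher was 3 to 6.

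Among accessory subunits and assembly factors, 3 of 6 tested genes fell and 1 rose (median log2 fold change -0.54). Deptor, which encodes an inhibitory subunit of both complexes, had 18.3, 15.6, 8.76 and 16.2 FPKM in wild-type replicates 1 to 4 and 0.357, 2.80, 4.36 and 0.330 FPKM in knockout replicates 1 to 4. It fell by 2.63 on the log2 scale (limma adjusted p = 0.00124). Prr5, which encodes the mTORC2 subunit PROTOR1, fell from 26.5 ± 3.07 to 3.96 ± 2.39 FPKM (SD, n = 4 each), 6.69-fold. Rictor, its partner in that complex, did not pass the test. The raptor-bound inhibitor gene Akt1s1 (PRAS40) fell by 0.91 (adjusted p = 0.0230), but its log2 fold change was 0.045 after GC correction. Tti1, which helps to assemble the kinase, was the gene that rose (0.69, adjusted p = 0.0489), with knockout replicate 3 inside the wild-type range.

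The amino acid branch was split as well. Of 12 tested genes for Rag GTPases, Ragulator and folliculin, which bring mTORC1 to the lysosome, 3 rose and 3 fell (median -0.03). The Ragulator subunit genes Lamtor1, Lamtor2 and Lamtor4 fell, with log2 fold changes of -1.34, -1.66 and -2.42, while Lamtor5 rose from 190 ± 21.3 to 299.6 ± 36.9 FPKM (SD, n = 4 each). The fifth subunit gene, Lamtor3, had a log2 fold change of -0.44 (adjusted p = 0.107). Lamtor1 lost its call after GC correction (adjusted p = 0.0572), and the other 3 kept theirs. Fnip1, which encodes a partner of folliculin, rose 2.47-fold, from 10.1 ± 1.41 to 25.05 ± 3.93 FPKM (SD, n = 4 each), and Rragc rose by 0.66. The log2 fold change of Fnip1 was 1.22, and 0.62 after GC correction (limma adjusted p = 0.0340). That of Rragc was 0.64 after the correction (limma adjusted p = 0.0312). Rragd was too low to be tested, at 0, 0, 0.229 and 0 FPKM in wild-type replicates 1 to 4 and 1.36, 0.837, 4.38 and 1.62 FPKM in knockout replicates 1 to 4.

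In GATOR1 and KICSTOR, complexes that restrain the Rag GTPases, 3 of 6 tested genes fell and 0 rose (median -0.73). The GATOR1 genes Nprl2 and Depdc5 fell by 0.86 and 0.73 (adjusted p = 0.0341 and 0.0470), and neither was called after GC correction (adjusted p = 0.290 and 0.125). Of 12 genes for GATOR2 and amino acid sensors, 5 fell and 1 rose (median -0.28). The GATOR2 genes Sec13, Wdr59, Wdr24 and Seh1l fell and Mios did not pass. Sec13, whose product also serves in the nuclear pore, went from 69.98 ± 13.3 to 36.9 ± 5.84 FPKM (SD, n = 4 each). After GC correction Wdr59 and Seh1l were called. Castor2, of the arginine sensor family, fell 9.5-fold, and the leucine sensor gene Sar1b rose (0.79, adjusted p = 0.0309) but was not called after GC correction (adjusted p = 0.215). Castor1, the relative of Castor2, had 2.81 ± 1.46 FPKM in wild type and 7.08 ± 4.61 FPKM in knockout (SD, n = 4 each), without overlap between libraries (adjusted p = 0.0643, and 0.0112 after GC correction).

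Subunits of AMPK, the energy sensor that LKB1 activates, fell in 4 of 6 tested cases, where 25.6% of all tested genes fell. Prkab2, a beta subunit gene, had 19.7, 17.2, 17.1 and 18.2 FPKM in wild-type replicates 1 to 4 and 8.41, 6.06, 5.39 and 5.81 FPKM in knockout replicates 1 to 4. It fell by 1.38 on the log2 scale (limma adjusted p = 0.000524). Prkag2, a gamma subunit gene, fell 3.2-fold, and the alpha subunit gene Prkaa2 fell by 1.27 (adjusted p = 0.0170). Prkab1 fell by 0.77 (adjusted p = 0.0247), but not after GC correction (adjusted p = 0.461). The catalytic subunit gene Prkaa1 had -0.24 (adjusted p = 0.414), and -0.76 after the correction (adjusted p = 0.0352). Of 4 tested genes for LKB1 partners 1 fell, Strada, which encodes a pseudokinase that holds LKB1 active. With Strada and Rhebl1, 6 of 14 tested genes in the list that holds AMPK fell and 0 rose (median -0.42).

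Among further translation outputs 2 of 10 tested genes rose and 2 fell (median -0.48). Rps6, which encodes the ribosomal protein phosphorylated by S6 kinases, rose from 479.4 ± 86.1 to 795.1 ± 72.4 FPKM (SD, n = 4 each). It has processed copies in the genome to which reads could be assigned, so its level is uncertain. Eef2k, the elongation factor 2 kinase gene, fell from 7.52 ± 2.40 to 0.968 ± 0.974 FPKM (SD, n = 4 each). Larp1, which encodes a regulator of ribosomal protein mRNAs, fell 2.42-fold (adjusted p = 0.0386), and the translation inhibitor gene Pdcd4 rose by 0.72 (adjusted p = 0.0452). Neither was called after GC correction (adjusted p = 0.215 and 0.207). Eif4e, whose product 4E-BP1 binds, had 80.6 ± 25.9 FPKM in wild type and 92.2 ± 17.3 FPKM in knockout (SD, n = 4 each; adjusted p = 0.493). The 4E-BP1 relative Eif4ebp2 had 10.1 ± 6.09 and 5.67 ± 3.13 FPKM (SD, n = 4 each; adjusted p = 0.217).

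Of 8 tested genes for other kinase targets 3 fell and 1 rose (median -0.38). The autophagy kinase gene Ulk1, which mTORC1 inhibits, fell from 16.6 ± 8.9 to 3.60 ± 1.28 FPKM (SD, n = 4 each). Tfe3, which encodes a lysosomal gene activator held in the cytoplasm by mTORC1, fell 3.96-fold, and the phosphatidate phosphatase gene Lpin1 fell 3.23-fold. All 3 kept their calls under every alternative run, but their changes were smaller after GC correction. Log2 fold changes went from -1.83 to -1.10 for Ulk1, from -1.58 to -0.89 for Tfe3 and from -1.06 to -0.85 for Lpin1. Sgk1, which encodes an mTORC2 substrate, rose (1.68, adjusted p = 0.0466), with knockout replicate 4 (1.79 FPKM) inside the wild-type range of 0.547 to 3.43 FPKM. Its call held in 7 of 22 alternatives.

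**Figure D5:**
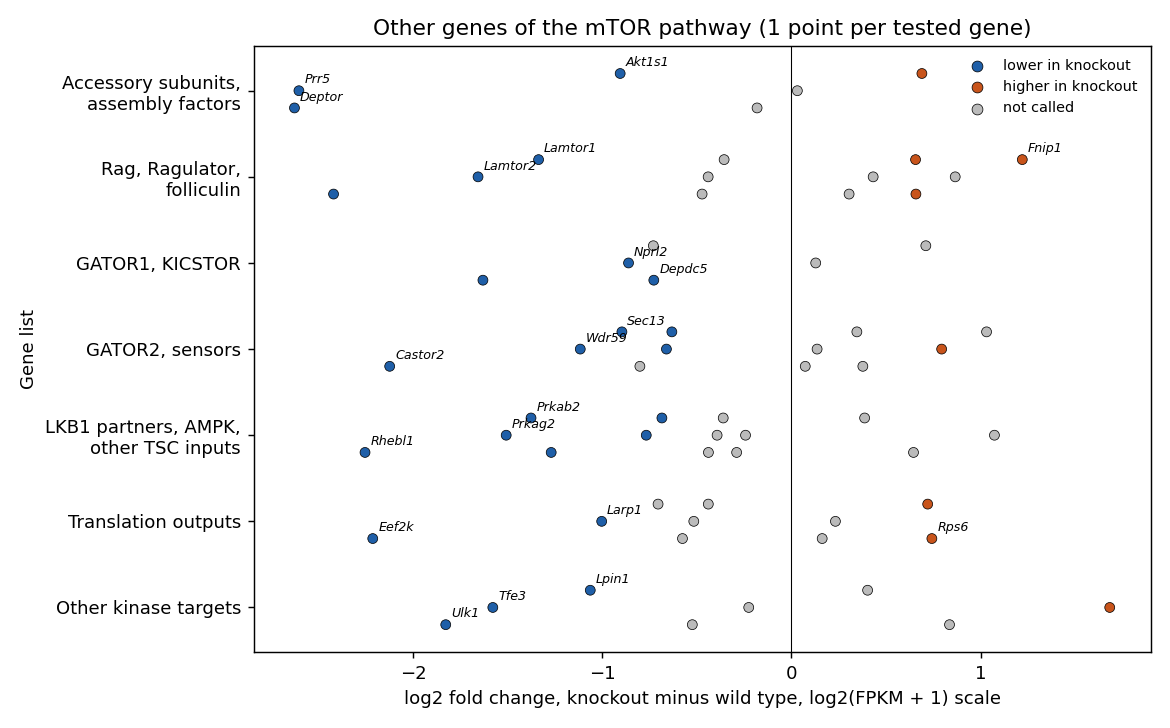
Log2 fold change, knockout minus wild type, of 68 further pathway genes in 7 lists, 1 point per tested gene, coloured by call. Names mark up to 3 of the called genes in each list. Lower calls (25) outnumber higher calls (8), and every list has both called and uncalled genes.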

How the data were processed

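The deposited table gives FPKM per gene and library for 8 libraries. Per the submitters' processing notes the tools were cutadapt, HISAT2 and HTSeq with genome build GRCm38 (mm10), with no version, annotation release or strand setting given in the sources used here. Deposited FPKM times union exon length (GENCODE M21) gave whole reads, within 0.02, for 97.4% to 97.6% of values above 0. Recovered reads served for depth, a check for duplicated libraries (lowest chi-square per degree of freedom 33.6) and limma-voom. Reads amplified without molecular identifiers are not independent molecules.

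limma 3.58.1 (R 4.3.3) was run on log2(FPKM + 1) of the genes that reached 1 FPKM in 4 libraries or more, with eBayes trend and no term but genotype. The steps were run on simulated data with far fewer changed genes than were called here, as a check of the code only. Exact permutation tests used all 70 splits. The members, lists and tests were chosen with earlier results of these data known. Named were the 10 genes, Rbpms2, up to 3 called genes with the smallest p per list and the most similar gene of each member. Tti1, Lamtor3, Lamtor4, Lamtor5, Rragc, Rragd, Wdr24, Seh1l, Mios, Sar1b, Prkaa1, Prkaa2, Prkab1, Strada, Pdcd4, Eif4e, Eif4ebp2, Sgk1, Castor1, the named markers and the overlapping genes were named after their values were seen, and so were the subgroups by complex. Of 75 pathway genes 1 symbol was unmatched and is not analysed here, and 1 gene the rule names is not reported here. Alternatives, 23 in all, were pseudocounts of 0.1 and 5, other filters (none, 5 FPKM), 3 scalings, GC correction (loess, span 0.5), the replicate block, both together, array weights, other eBayes settings, limma-voom and left-out libraries. Figures used matplotlib 3.10.9.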

Additional observations from a re-analysis of the deposited data

Results flagged for a closer look

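Of the 20 sets of 4 values (10 genes in 2 genotypes) 2 held a library far from the other 3, where chance gives about 1 in 20. Eif4ebp1 stood at 78.2 FPKM in knockout replicate 2, and the gap to the next library took 0.837 of the range of the 4. Rictor stood at 14.04 FPKM in wild-type replicate 3, with a gap of 0.844 of the range. That library also had the highest summed erythroid markers (5354 FPKM, against 11.9 to 4211 FPKM in the others). Wild-type replicate 1 held the 4211 FPKM, with Rictor at 9.13 FPKM. Replicate 3 was also the highest wild-type library in summed stromal, granulosa, immune and dissociation markers. The part of any of these markers in the Rictor level was not tested.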

How the results depend on the processing

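Rptor, Rheb and Eif4ebp1 kept direction and call in all 23 alternatives, with log2 fold changes of -2.12 to -0.93, 0.92 to 1.28 and -4.25 to -2.64. GC correction left 3 of the 10 genes lower and 1 higher: Mlst8 (-0.39), Tsc1 (-0.35), Tsc2 (-0.42) and Stk11 (-0.34) were no longer called, Rictor was (-0.63), and the signs of Mtor (0.36), Rps6kb1 (-0.11) and Akt1s1 (0.045) turned. Without a filter on low values, where more genes were tested, Mlst8 (-0.90) and Stk11 (-1.16) were not called and 5 pathway genes were higher, against 4 with eBayes without trend. Of all tested genes 1886 of 18645 were higher without the filter, and 1922 of 11235 with eBayes without trend. A filter at 5 FPKM left Mlst8 and Stk11 untested. Median-of-ratios scaling ended the call of Tsc1 (-0.55) and gave Mtor 0.014. Quantile scaling ended those of Mlst8 (-0.58) and Tsc1 (-0.51), gave Mtor 0.015 and called Rps6kb1 (0.65), so that 2 genes were higher. limma-voom did not call Mlst8 (-1.36) or Stk11 (-1.41). The 3 libraries rich in stromal markers were wild-type replicate 3 and knockout replicates 2 and 3, and leaving them out leaves fewer samples. Knockout replicate 1, with endothelial markers at 296.7 FPKM, stayed in. Without the 3 libraries Tsc1 (-0.74) and Stk11 (-1.19) were not called, Mtor had 0.11, and the genotypes differed by -0.0083 in Tsc1 minus Tsc2. The cause of these changes was not tested.

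With 1 library left out, 1 to 2 of the 10 genes were higher and 3 to 6 lower, and 3 to 6 pathway genes were higher and 16 to 23 lower. The ranges were -0.26 to 0.058 for Mtor, -0.33 to -0.14 for Rictor, -1.05 to -0.76 for Mlst8, -0.76 to -0.59 for Tsc1, -1.45 to -0.95 for Stk11 and 0.38 to 0.65 for Rps6kb1. The genotypes differed in Rptor minus Rictor by -1.52 to -1.26, in Tsc1 minus Tsc2 by 0.14 to 0.36, in Rps6kb1 minus Eif4ebp1 by 3.01 to 4.49 and in Mtor minus Mlst8 by 0.61 to 1.09. Over all tested genes 1516 to 1949 were higher and 2393 to 3011 lower.

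The labels number replicates 1 to 4 in both genotypes. Deviations of libraries of 1 number correlated at -0.05 to 0.36, and those of unlike number at -0.34 to 0.33. So few values do not settle whether the number marks a pairing, and the main fit took none. With the replicate block 1 of the 10 genes was higher and 5 lower, with Mlst8 (-0.90) not called. Of all 11235 tested genes 2113 were then higher and 2921 lower. The block with GC correction left 2 lower, where 2278 of 11220 tested genes were higher and 2185 lower. Mlst8 (-0.39), Tsc1 (-0.35), Tsc2 (-0.42), Stk11 (-0.34) and Rictor (-0.63) were not called in that fit. Mtor (0.36), Rps6kb1 (-0.11) and Akt1s1 (0.045) turned in sign. Mlst8 and Stk11, with 48 and 37 reads in their lowest library, are those whose depth limits the comparison most.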
